A study of Mus musculus with 6 samples.

Results

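The rows described here name a microRNA gene in a table of mouse liver RNA. They were chosen by their biotype and by their level: a row was kept when its microRNA gene reached at least 0.5 FPKM (fragments per kilobase of transcript scaled to the mapped fragments of a library) in the higher of the 2 groups. This left 113 of 1839 microRNA rows, for 112 different genes, in a table of 68997 rows. Another 1710 microRNA rows were listed at 0 in both groups, and 16 lay above 0 and under the limit. The limit used the same values that are compared below, so levels and ratios of the members are a description.

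The livers came from wild-type C57BL/6 mice of 10 weeks on the NCD diet. One group of 3 mice received Ad-MAFG, an adenovirus carrying Mafg cDNA behind a CMV promoter, and the other group of 3 received Ad-CMV, the same kind of virus with an empty vector. MAFG is a small Maf transcription factor that binds DNA with a partner protein or as a pair of MAFG molecules (a homodimer). Every mouse of both groups carried virus, and the promoter is not specific to hepatocytes. The table holds 1 FPKM value per group and none per mouse. No spread between mice can therefore be given, and no difference below has a test or a p-value.

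A microRNA begins as a long primary transcript, either its own or the intron or exon of a host gene. Drosha with Dgcr8 cuts a short hairpin from it in the nucleus, Xpo5 carries the hairpin out with Ran, and Dicer1 cuts it to the mature microRNA, which an Argonaute protein uses to find targets by the seed, bases 2 to 8. In liver, miR-122 is the dominant mature microRNA and acts on lipid and cholesterol metabolism. Total RNA with ribosomal RNA removed was sequenced from long fragments, so a value stands for a transcript assembled over the microRNA gene, that is a primary or host transcript, and does not measure the mature form. The annotated microRNA genes of the members were 54 to 171 bases long, while the assembled loci that carried them had a median length of 66042 bases. The length that each FPKM value was divided by is not given, so levels are compared between groups and not between genes.

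Mature products of microRNA genes without a host row are shown first, since the best-known microRNA genes of the liver are among them, together with miR-1961 from an intron of Shroom3 for its seed. Sequences are from RefSeq (GRCm38.p6), whose tables held a mature sequence for 42 of the 112 genes, and the capitals mark the seed.
mmu-miR-802-5p: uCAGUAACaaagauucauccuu
mmu-miR-148a-3p: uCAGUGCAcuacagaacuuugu
mmu-miR-345-5p: gCUGACCCcuaguccagugcuu
mmu-miR-365-3p: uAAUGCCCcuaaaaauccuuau
mmu-let-7c-5p: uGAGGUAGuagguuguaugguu
mmu-let-7i-5p: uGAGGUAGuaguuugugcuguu
mmu-miR-1961: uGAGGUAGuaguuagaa
mmu-miR-146a-5p: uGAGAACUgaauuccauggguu
mmu-miR-31-5p: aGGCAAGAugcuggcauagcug
The let-7c, let-7i and miR-1961 sequences share the seed GAGGUAG, and this was the 1 seed held by mature sequences of more than 1 member gene. The hairpin of Mir802 is given whole, with its 5p and 3p arms in capitals, because its row had the lowest ratio of Ad-MAFG to Ad-CMV among rows with a Mir name above 0 in both groups.
Mir802 hairpin: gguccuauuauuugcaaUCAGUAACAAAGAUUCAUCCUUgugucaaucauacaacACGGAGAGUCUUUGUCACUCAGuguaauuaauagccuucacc

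Mir802, whose product is raised in obese mouse liver, lay at chr16:93369720-93369816 on the plus strand. Its locus of 5073 bases held no row of another gene. The Mir802 row stood at 3.02 FPKM in Ad-CMV and 0.703 FPKM in Ad-MAFG. With 0.1 FPKM added to both values, as for all ratios below, this was 3.89-fold lower in Ad-MAFG (log2 ratio −1.96).

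Mir122 on chromosome 18 stood at 76.5 FPKM in Ad-CMV and 51.5 FPKM in Ad-MAFG (log2 ratio −0.57). A second assembled row over the Mir122 locus, with no gene name, stood at 8.67 and 5.21 FPKM (log2 ratio −0.72). Both rows were thus lower in Ad-MAFG by less than 2-fold.

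Mir148a, whose product acts on the LDL receptor, stood at 0.931 FPKM in Ad-CMV and 0.57 FPKM in Ad-MAFG (log2 ratio −0.62). Mir365-2, which lies in 1 cluster with Mir193a, stood at 2.25 and 1.36 FPKM (log2 ratio −0.69). Mir345 lies within Slc25a47, a mitochondrial carrier gene of the liver, by GENCODE M21 but outside the span that the table gives for that gene, and its row stood at 0.935 and 0.497 FPKM (log2 ratio −0.79). The row of Slc25a47 itself, assembled as a separate locus, was at 66.1 and 40.5 FPKM (log2 ratio −0.71), so both were lower by a similar ratio.

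Of the let-7 family, which restrains growth and is blocked by the Lin28 proteins, 9 genes were in the table, and 7 of them were listed at 0 in both groups. Mirlet7c-2, assembled over a locus that also holds Mirlet7b, stood at 2.08 FPKM in Ad-CMV and 1.80 FPKM in Ad-MAFG (log2 ratio −0.20). Mirlet7i stood at 1.198 and 1.245 FPKM (log2 ratio 0.05). Mir31 stood at 0.575 and 0.439 FPKM (log2 ratio −0.33). By GENCODE M21, Mir122 lies in a non-coding exon of AC157910.3, Mirlet7c-2 of Lncppara, Mirlet7i of D630033A02Rik and Mir31 of AL805899.1. None of these was a host by the rule used here, so having no host row does not mean having no host gene.

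**Figure D1:**
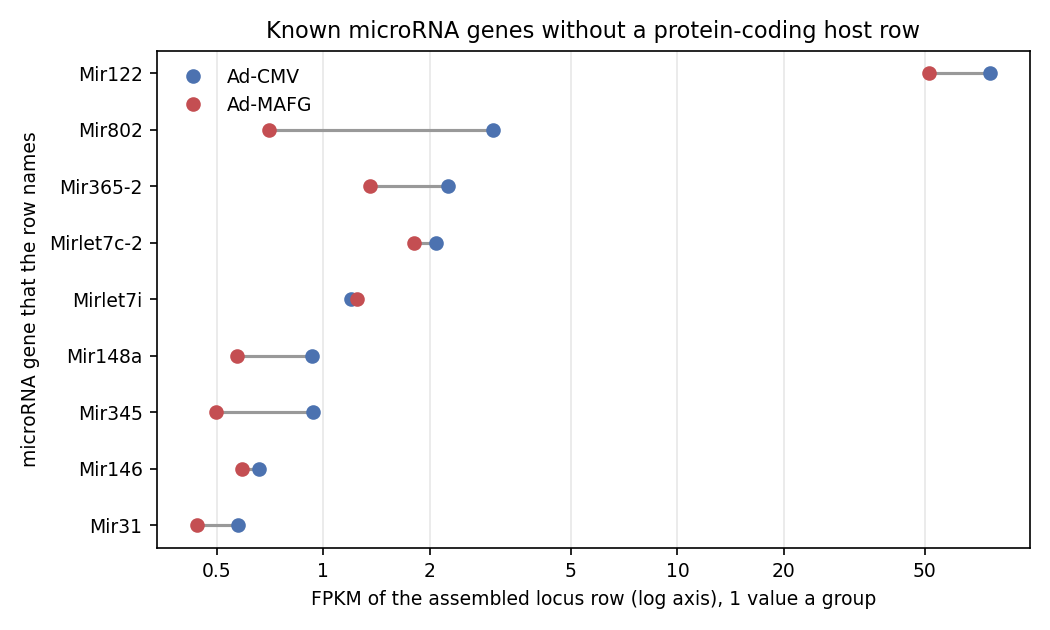
FPKM (log axis) of the rows naming 9 known microRNA genes for which the table's own gene spans give no host, with 1 point for each group and a line joining the groups. Mir802 shows the widest gap, 3.02 against 0.703 FPKM, and Mirlet7i is the only one of the 9 with the higher value in Ad-MAFG.

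Of 55 gene names in a list of microRNAs abundant in liver, 37 were found in the table, 32 were listed at 0 in both groups and 5 were members, namely Mir122, Mir802, Mir148a, Mirlet7c-2 and Mirlet7i. Mir192, Mir194-1, Mir194-2, Mir378a and Mir33 were among those at 0. For these and other microRNA genes, a listed 0 belongs to the row of that name and does not show that no transcript covered the gene. Gm25301, for example, overlaps Mir378a, and its row stood at 1.48 FPKM in Ad-CMV and 0.988 FPKM in Ad-MAFG. Of these 5 members, 4 were lower in Ad-MAFG, and 1, Mir802, by at least 2-fold. The median log2 ratio of the 5 was −0.57, beside −0.02 over all rows at the limit and −0.59 over 7 hepatocyte marker genes given below. Over all rows at the limit, 52.0% were lower in Ad-MAFG.

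MicroRNAs of blood, endothelial and stromal cells were represented by few rows: 13 of 20 listed names were in the table, and 11 were at 0 in both groups. Mir146, whose product damps NF-kB signalling, stood at 0.66 FPKM in Ad-CMV and 0.587 FPKM in Ad-MAFG (log2 ratio −0.14). Mir199a-1, known from stromal cells, stood at 1.08 and 1.34 FPKM (log2 ratio 0.29). Neither differed by 2-fold. All 3 genes of the p53-induced Mir34 group and 9 of 10 imprinted microRNA genes in the table were at 0 in both groups, and so were the 6 microRNA genes found of the Mir106a to Mir363 cluster, a relative of the Mir17 cluster. The host transcript of the Mir17 cluster itself, Mir17hg, stood at 1.78 and 1.63 FPKM (log2 ratio −0.11).

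Across the members, 23 of 113 rows (20.4%) were at least 2-fold apart, 13 higher (11.5%) and 10 lower (8.85%) in Ad-MAFG. Over all 21138 rows of the table at the same limit, 14.9% were 2-fold apart, 7.82% higher and 7.09% lower. The excess lay in rows listed at 0 in one group, which made up 10.6% of the members and 0.866% of all rows. Among the 101 members above 0 in both groups, 10.9% were 2-fold apart (5 higher and 6 lower), beside 14.2% of all rows above 0 in both. The median log2 ratio of the 113 members was −0.03, beside −0.02 over all rows. Of the 101 rows, 79 lay within 1.5-fold, a share that was not computed over all rows. Their quartiles were −0.33 and 0.26, beside −0.33 and 0.33 over all rows at the limit.

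**Figure D2:**
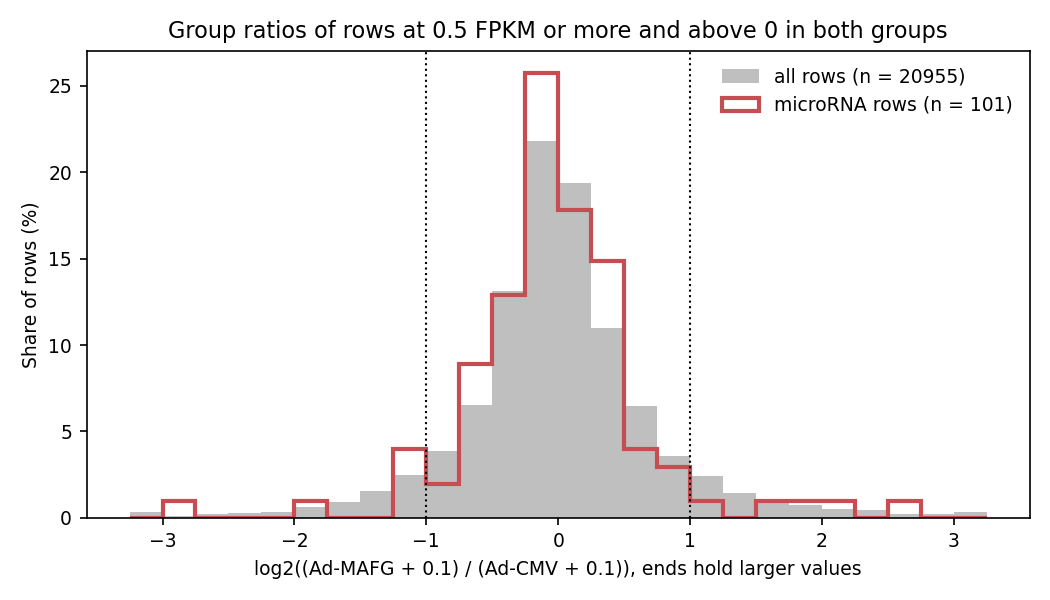
Share of rows (%) by log2 ratio of Ad-MAFG to Ad-CMV, with 0.1 FPKM added, for 101 microRNA rows (line) and 20955 rows of the whole table (grey) above 0 in both groups; dotted lines mark 2-fold. The microRNA rows centre near 0 as all rows do, and 11 of them lie beyond the dotted lines.

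The marker genes of the tissue frame these values. Of the 7 hepatocyte markers at 0.5 FPKM or more, 6 were lower in Ad-MAFG and Alb was higher, with a median log2 ratio of −0.59. Hepatocyte markers summed to 7590.26 FPKM in Ad-CMV and 6972.92 FPKM in Ad-MAFG, and 7 of 8 stood between 49.4 and 5603 FPKM in their higher group; the row of Ttr, a hepatocyte gene, was at 0.000307 and 0.23 FPKM. Markers of other cells other than the haemoglobin gene Hbb-bs summed to 24.6 FPKM in Ad-CMV and 34.3 FPKM in Ad-MAFG, and Prss1 (pancreas) was at 0. Of the 6 markers of other cells at 0.5 FPKM or more, 4 were higher and 2 lower in Ad-MAFG. Col1a1, a collagen gene of stromal cells, stood at 2.19 and 13.4 FPKM and Krt19, a bile duct keratin, at 0.584 and 1.49 FPKM. Both were higher in Ad-MAFG by more than 2-fold, and Col1a1 alone rose by more than the sum did. Pecam1 (log2 ratio −0.32) and Clec4f (−0.18) were lower, and Ptprc (0.07) was about level. Of the hepatocyte markers, Cyp2e1 and Apoa1 were lower by more than 2-fold. In whole liver, fewer cells of a type and less RNA per cell cannot be told apart, and the part of these shifts in the microRNA rows was not tested.

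The strand of each assembled row was read from the order of the locus numbers, since the table gives only the strand of the annotated gene. Every microRNA row listed at 0 with a readable strand (1705 of 1705) lay on the strand of its annotated gene. Of the members, 24 lay opposite to their microRNA gene, and 23 of these had a partner row on the annotated strand at 0. Mir122, Mir802, Mir148a, Mir345, Mir365-2, Mirlet7c-2, Mirlet7i, Mir31 and Mir146 were all of this kind. Among protein-coding rows with a readable strand, 72.9% of 14870 rows at 0.5 FPKM or more lay opposite to the annotated strand, 62.8% of 2920 rows at 5 FPKM or more and 32.7% of 284 rows at 50 FPKM or more, beside none of 5713 rows at 0. A transcript from the annotated strand and one from the other strand cannot be told apart in these rows or in the other members.

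Several of the lower rows shared their locus with a gene of another kind. Gm23726, at chr3:18069326-18069392, stood at 5.91 FPKM in Ad-CMV and 0.781 FPKM in Ad-MAFG, 6.82-fold lower (log2 ratio −2.77). Its locus also held 3 rows of Cyp7b1, the oxysterol 7-alpha-hydroxylase of the alternative bile acid pathway, with log2 ratios of −2.90, −2.17 and −2.996. The highest of these Cyp7b1 rows stood at 30.7 FPKM in Ad-CMV and 3.76 FPKM in Ad-MAFG. The microRNA row and the Cyp7b1 rows were therefore lower together.

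Mir6381, annotated antisense to a coding exon of Gbp2, an interferon-induced GTPase, stood at 7.23 FPKM in Ad-CMV and 3.14 FPKM in Ad-MAFG (log2 ratio −1.18). The row named Gbp2 stood at 1.13 and 0.934 FPKM (log2 ratio −0.25), so the row with the microRNA name showed the larger difference. Since the strands cannot be told apart, the row named Mir6381 may hold transcripts of Gbp2.

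Mir290a, the first member of a cluster known from mouse embryonic stem cells, stood at 8.95 and 4.22 FPKM (log2 ratio −1.06). Its locus of 32276 bases also held Nlrp12, a regulator of inflammatory signalling, at 3.03 and 1.41 FPKM (log2 ratio −1.05). The 2 ratios were nearly alike. Mir290b, annotated on the other strand over the same hairpin, was listed at 0.

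Gm27463, in an intron of the antisense transcript Gm49431, stood at 15.3 and 7.15 FPKM (log2 ratio −1.09). The unnamed rows of its locus on the other strand stood at 5.14 and 2.73 FPKM and at 1.72 and 0.973 FPKM, both lower in Ad-MAFG. Gm22196, in a locus with Steap4, stood at 0.642 and 0.225 FPKM (log2 ratio −1.19), while Steap4 was at 10.9 and 12.1 FPKM. Here the rows of the locus differed in direction.

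Mir3073b lies in an intron of Aspg, an asparaginase gene, opposite to Mir3073a. It stood at 4.75 FPKM in Ad-CMV and 2.75 FPKM in Ad-MAFG (log2 ratio −0.77), beside 0.734 and 0.00133 FPKM for the Aspg row. Gm23158 shared its locus with Nr0b2, the bile acid-responsive nuclear receptor SHP, and stood at 4.71 and 3.39 FPKM, beside 2.97 and 2.36 FPKM for Nr0b2. All 4 of these rows were lower in Ad-MAFG.

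On the other side, 5 rows above 0 in both groups were at least 2-fold higher in Ad-MAFG, and each was at 1.57 FPKM or less in both groups. Mir6358 stood at 0.00915 FPKM in Ad-CMV and 0.558 FPKM in Ad-MAFG (log2 ratio 2.59), and Gm27844 at 0.0414 and 0.519 FPKM (log2 ratio 2.13). Gm44456, in a locus of 412 bases, stood at 0.337 and 1.57 FPKM (log2 ratio 1.93). No gene of another kind was annotated at these 3 hairpins. Gm27452 stood at 0.216 and 0.567 FPKM (log2 ratio 1.08). Gm25952, in a non-coding exon of 9130230L23Rik, stood at 0.143 and 0.592 FPKM, and its host row at 0.158 and 0.641 FPKM, with log2 ratios of 1.51 and 1.52.

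The next 5 higher rows lay in or opposite to protein-coding genes. Gm44458 in an intron of Rcsd1 stood at 1.16 and 2.12 FPKM, with the host at 0.891 and 1.62 FPKM. Mir7211 in an intron of Tmcc3 stood at 1.97 and 3.12 FPKM, with the host at 0.361 and 0.764 FPKM. Host and microRNA row were on the same side in both pairs. The rest were Gm22064 (log2 ratio 0.81), Gm25953 (0.77) and Gm25238 (0.63).

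Of the 113 members, 89 lay within a protein-coding (86) or long non-coding (3) gene of the same table. The annotation placed 76 of these 89 microRNA genes opposite to the host, and 84 of the 89 rows were assembled opposite to the host's annotated strand. In 61 pairs the host reached 0.5 FPKM, and in 47 of these the host row too lay opposite to the host's annotated strand. The microRNA row of a pair may therefore hold transcripts of the host. By GENCODE M21, 66 members lay in introns alone and 31 overlapped an exon, 18 of them a coding exon. Over all 89 pairs, 48 had the microRNA row and the highest host row on the same side of 0. In 28 pairs every host row was under 0.5 FPKM. Some of these hosts had a log2 ratio of 0, and their pairs were counted as not on the same side. In the 56 pairs with the host at 0.5 FPKM or more and the microRNA row above 0 in both groups, a choice made after seeing the values, 39 were on the same side. The log2 ratios of these 56 pairs had a Pearson r of 0.66 and a Spearman rho of 0.68 across rows, and r was 0.61 without the 2 hosts farthest from the median. The rows of a pair share the libraries and the locus, and pairs are not independent replicates.

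**Figure D3:**
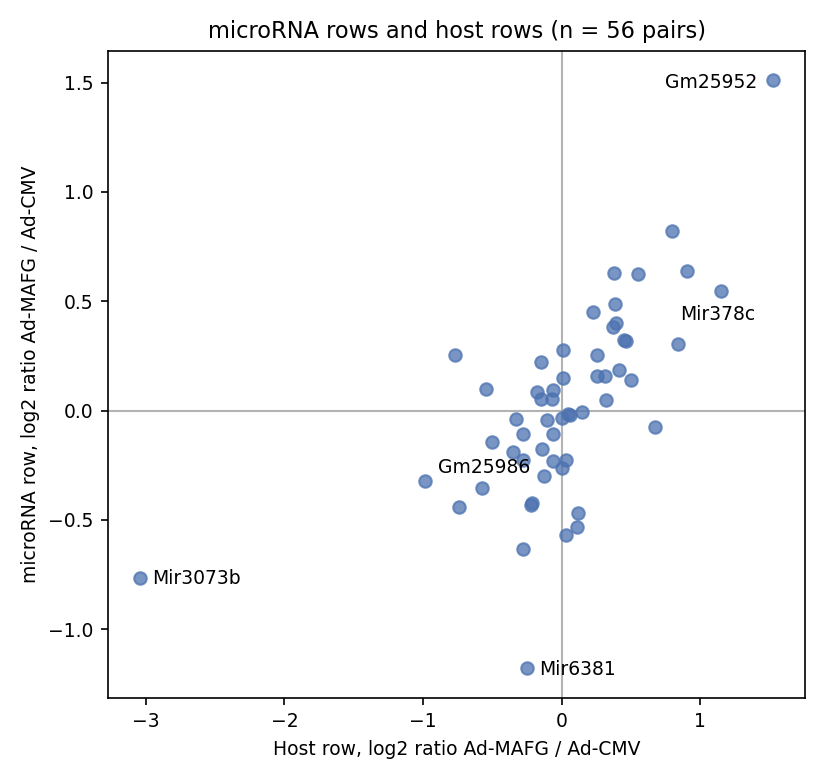
Log2 ratio of Ad-MAFG to Ad-CMV of the microRNA row (vertical) against that of its host row (horizontal) for 56 pairs. In these the host was at 0.5 FPKM or more and the microRNA row above 0 in both groups. Points of 39 pairs lie on the same side of 0 on both axes; Gm25952 with 9130230L23Rik lies at the upper right and Mir3073b with Aspg at the far left.

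Several rows carry the name of an annotated antisense partner of a well-known microRNA, and they were picked out after their values were seen. Mir142b, opposite to Mir142 of blood cells in Mir142hg, stood at 2.394 FPKM in Ad-CMV and 3.001 FPKM in Ad-MAFG, while Mir142 and Mir142hg were listed at 0. Gm25301, opposite to Mir378a in an intron of Ppargc1b, a coactivator of mitochondrial genes, stood at 1.48 and 0.988 FPKM, with Ppargc1b at 1.27 and 1.37 FPKM. Gm24111, over Mirlet7f-1, stood at 6.09 and 4.63 FPKM, and Mir30f, over Mir30e in Nfyc, at 2.06 and 1.90 FPKM. In none of these 4 did the groups differ by 2-fold. Since the strands cannot be told apart, each of these 4 rows may hold transcripts of either strand. The 0 of Mir142 and Mir142hg does not show that they were silent. Mir378c in an intron of Samd4 stood at 0.844 and 1.28 FPKM, with the host at 1.26 and 2.93 FPKM (log2 ratios 0.55 and 1.15).

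Among the 10 rows with the highest mean of the groups, Gm23935, Gm24157 and Mir6395 lay inside larger host loci. Gm23935, in an intron of Zc3h7a at chr16:11144125-11144181, had a row on each strand: one stood at 86.3 FPKM in Ad-CMV and 58.2 FPKM in Ad-MAFG, and the other at 20.6 and 17.6 FPKM. Zc3h7a, an RNA-binding protein gene, stood at 10.7 and 11.0 FPKM. The host row was thus about level while both microRNA rows were lower in Ad-MAFG. Gm24157, over a coding exon of the phosphatase gene Ppp2ca, stood at 24.98 and 29.18 FPKM, and Mir6395, in an intron of Saraf, at 11.7 and 8.65 FPKM.

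A set of 6 rows lay opposite to coding exons of histone H2A genes, and their annotated hairpins overlap in sequence. The GENCODE M21 sequences of a pair are printed to show how alike they are, with Gm44346 in Hist1h2an in lower case and capitals in Gm44364 of H2afj for the 7 of 141 bases that differ from it.
Gm44346: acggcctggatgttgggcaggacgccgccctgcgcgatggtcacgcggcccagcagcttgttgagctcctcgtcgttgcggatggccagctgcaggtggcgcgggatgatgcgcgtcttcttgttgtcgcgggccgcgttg
Gm44364: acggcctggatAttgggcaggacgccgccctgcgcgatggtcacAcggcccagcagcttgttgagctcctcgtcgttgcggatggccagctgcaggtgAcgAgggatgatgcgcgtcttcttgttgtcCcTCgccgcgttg
Of the 15 pairs, 7 were 94.3% to 99.3% identical over their length; in the other 8, Gm44313 or Gm44484 against the rest, the annotated windows are shifted and 95 to 99 of 99 aligned bases were identical. The division of reads between these rows is uncertain.

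Of the 6 H2A rows, 5 were lower in Ad-MAFG, none by 2-fold, with a median log2 ratio of −0.33, beside 52.0% lower and a median of −0.02 over all rows at the limit. This set was picked out after its values were seen. Gm44364 stood at 37.2 FPKM in Ad-CMV and 25.8 FPKM in Ad-MAFG, and Gm44484, in Hist1h2ab, at 22.4 and 15.1 FPKM. Gm44313 in Hist3h2a stood at 16.3 and 14.6 FPKM, Gm44297 in Hist1h2af at 8.72 and 6.56 FPKM and Gm44346 at 3.54 and 2.95 FPKM. Gm44335 in H2afx, the variant marked at DNA breaks, was the exception at 3.78 and 4.14 FPKM. The rows named for the H2A genes themselves, all on the annotated strand, were at 0.132 FPKM or less in both groups. This does not show that the H2A genes were silent. In the 6 rows, a transcript of the H2A gene and one from the other strand cannot be told apart.

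**Figure D4:**
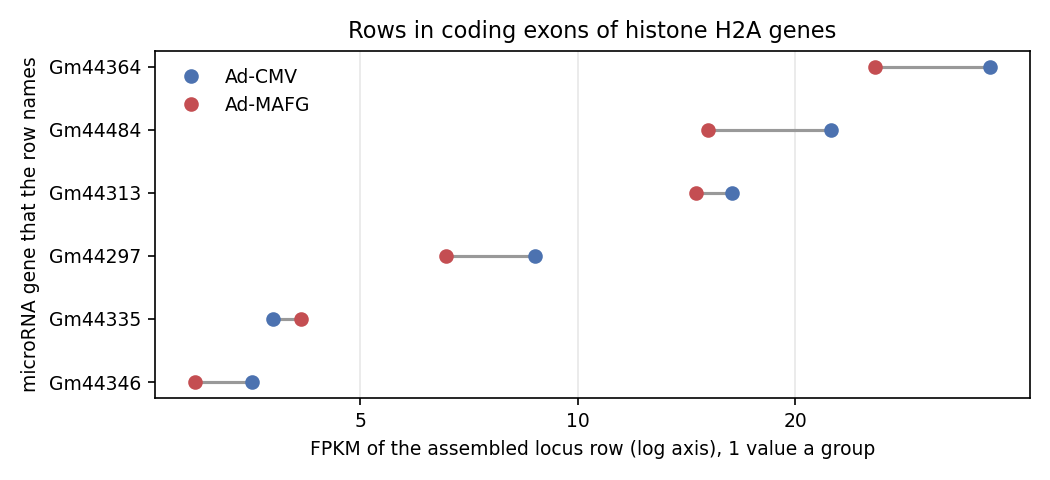
FPKM (log axis) of the 6 rows that name a microRNA gene opposite to a coding exon of a histone H2A gene, with 1 point for each group. Gm44335 is the only one of the 6 with the higher value in Ad-MAFG.

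Rows listed at 0 in one group numbered 12, of which 9 were marked by the authors' program as not tested. Listed at 0 in Ad-MAFG were AC122546.1 (66.9 FPKM in Ad-CMV), Gm22913 (19.1), Gm44327 (5.07) and Gm25110 (2.998). Listed at 0 in Ad-CMV were Gm22953 (14.1 FPKM in Ad-MAFG), Gm24196 (14.0), Mir6240 (6.37), Gm44450 (5.24), Gm25240 (1.35), Gm44330 (1.26), AC151286.1 (1.26) and Gm25197 (1.17). No fold is given for these rows, since without counts a value of 0 has no floor. Gm22913 and Mir6240 were assembled over exactly the annotated microRNA gene, of 101 and 117 bases. Gm44330 and Gm44450 shared the locus of Adgrl1, which stood at 0.855 and 1.32 FPKM.

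Of the genes that process microRNAs and reached 0.5 FPKM, all but 1 lay within 2-fold. Of 30 listed genes, 28 were in the table and 19 reached 0.5 FPKM. Of the 19, 1 was at least 2-fold higher in Ad-MAFG and none was 2-fold lower, beside the 14.9% over all rows. Each of the 19 is counted by its highest row, while the 14.9% counts every row at the limit, so the sets are unlike. That 1 was Mov10, an RNA helicase that associates with Argonaute, at 0.275 and 1.17 FPKM (log2 ratio 1.77). The median log2 ratio of the 19 was 0.06.

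In the nuclear step, Dgcr8 stood at 1.00 FPKM in Ad-CMV and 1.13 FPKM in Ad-MAFG, while the Drosha row was near 0 in both groups. The helicase partner Ddx5 stood at 55.1 and 49.9 FPKM and Ddx17 at 8.37 and 8.61 FPKM. In export, Xpo5 stood at 4.54 and 5.18 FPKM and Ran at 15.9 and 19.2 FPKM. Of these genes, all but Drosha, which was too low to compare, lay within 1.5-fold. Hnrnpa1, also on the list, stood at 0.346 and 0.708 FPKM (log2 ratio 0.86), the highest ratio of the 19 after Mov10.

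In the cytoplasm, Dicer1 stood at 4.33 and 4.23 FPKM and its partner Prkra at 3.66 and 2.02 FPKM (log2 ratio −0.83). The Argonaute genes Ago1, Ago3 and Ago4 stood at 3.43 and 3.32, at 3.06 and 3.33, and at 1.26 and 1.39 FPKM, and the Ago2 row was at 0.0361 and 0.0338 FPKM. By the highest row of each gene, which is used here, Prkra showed the lowest ratio of the 19 genes; with all rows of a gene summed, Dis3l2 (log2 ratio −0.71) and Tnrc6b (−0.64) were below Prkra (−0.36). Lin28a, which blocks let-7 processing, and Adar were listed at 0 in both groups. The row of Ttr, a hepatocyte gene, was also under 0.5 FPKM, so a row at or near 0 does not show that a gene is silent. Drosha, Ago2 and Adar could therefore not be assessed here.

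Near the limit, the members just inside were Gm25355 at 0.508 and 0.449 FPKM, Mir7240 at 0.508 and 0.292 FPKM and Gm27844, given above. Just outside were Mir298 at 0.0834 and 0.488 FPKM, Gm26116 at 0.481 and 0.487 FPKM and Mir1195 at 0.419 and 0.485 FPKM.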

How the data were processed

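Liver RNA of 6 mice, 3 per group, was depleted of ribosomal RNA, made into strand-specific libraries and sequenced in pairs. Per the labels and the study's methods, the authors removed reads of ribosomal RNA with Bowtie2 2.2.9, aligned the rest to GRCm38 (mm10) with STAR 2.6.0c, assembled transcripts with Cufflinks 2.2.1, merged them and compared the groups with Cuffdiff. In the deposited table each row has 1 FPKM value for Ad-CMV and 1 for Ad-MAFG, estimated by the authors over the 3 mice, and there are 0 columns of values per mouse. Library depth is unknown, and precision cannot be given. The authors' own fold changes, p-values, q-values and calls stand in further columns and were not used.

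Rows with a microRNA biotype and at least 0.5 FPKM in the higher group were kept. The ratio was log2((Ad-MAFG + 0.1)/(Ad-CMV + 0.1)), with 2-fold as the limit, and it was checked on a table with known ratios. As no values per mouse were at hand, no test was made. Hosts were genes of the table whose span holds the microRNA gene, and their highest row was used. Strand was read from locus numbers, which run along plus, then minus, with a fall in start of more than 1000000 bases between them. Positions in genes were read from GENCODE M21. Rows named were the 10 with the highest mean, the 10 with the largest ratio in each direction, those at 0 in one group, list members and 3 on each side of the limit; H2A rows, Mir31, antisense partners, Gm23158 and Mir378c were added after their values were seen. Members and lists were chosen with earlier results of these data known. Other pseudocounts, limits, filters, host choices and centring were tried. Mafg is not analysed here. Python 3 with pandas and Biopython was used.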

Additional observations from a re-analysis of the deposited data

How the results depend on the processing

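The count of 23 of 113 microRNA rows at least 2-fold apart was 15 of 113 with a pseudocount of 1. It was 12 of 101 with no pseudocount and rows above 0 in both groups, and 14 of 104 with only rows marked as having enough reads. In these 3 settings rows listed at 0 were removed or damped. Across the other 7 settings it ranged from 17 of 113 at a 3-fold limit to 34 of 113 at a 1.5-fold limit. The share over all rows was not computed at these settings, so these counts cannot be set against the whole table. The median log2 ratio of −0.0328 was −0.0249 with a pseudocount of 1, −0.0421 with no pseudocount, −0.0396 at 1 FPKM or more, −0.041 with a mean of at least 0.5 FPKM and −0.0396 with rows marked as having enough reads. The count of pairs on the same side, 48 of 89, was 6 of 13 where host and microRNA gene share the annotated strand; among choices made after seeing the data, it was 43 of 61 with the host row at 0.5 FPKM or more and 36 of 53 with the host row on the strand of the microRNA row. The 1 biogenesis gene 2-fold apart was 0 of 19 with a pseudocount of 1. No paired analysis was possible because the table holds 1 value per group and the result comes from no test; for the same reason no replicate could be left out. Low rows and rows of short genes are the least precise, and no depth is given to say by how much.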

Other observations

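Among the 16 microRNA rows above 0 and under 0.5 FPKM, 4 (25%) were at least 2-fold apart on the same scale, beside 11.9% of all 22853 rows in that range. Mir1247 stood at 0.153 FPKM in Ad-CMV and 0.462 FPKM in Ad-MAFG, Gm23802 at 0.112 and 0.435 FPKM, Mir298, in the imprinted Gnas region, at 0.0834 and 0.488 FPKM, and Mir6386 at 0.346 and 0.000153 FPKM. These values are given with no replicate check.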
